A study of Danio rerio with 12 samples.

Results

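The early response to JQ1 was measured by comparing 3 RNA-seq libraries of tumor cells taken after 1 day of JQ1 with 3 libraries of tumor cells taken after 1 day of the solvent DMSO. These 6 libraries were chosen by their sample labels from a series of 12, and the other 6 are the same treatments at day 3. All fish carried the human IRF4 gene and the fluorescent marker mCherry under the zebrafish lck promoter, which drives expression in lymphocytes, and all had developed tumors. In the JQ1 group the fish were kept in individual tanks with 4 µM JQ1, and in the DMSO group with the same amount of DMSO. Cells were sorted by mCherry fluorescence, and the protocol in the labels gives 3 independent animals without tying a library to an animal. Fish of mixed gender were used. Fish used for bulk RNA-seq were 10 months old. Those pictured in the JQ1 experiment were p53 wild type, and the labels of these libraries give neither age nor p53 genotype. The study's text describes a treatment of 3 days, so the day of these libraries rests on the labels.

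JQ1 displaces the bromodomains of BET proteins from acetylated histones. BET proteins act with P-TEFb, the kinase that releases paused RNA polymerase II, at active genes, and genes with large clusters of enhancers (super-enhancers), such as MYC in many blood cancers, are known to be sensitive to BET inhibition. Hexim1 holds P-TEFb in an inactive complex, and its mRNA is a widely used readout of BET inhibition because it increases in most cell types studied. IRF4 is a transcription factor of lymphocytes and drives several lymphoid cancers.

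The 6 libraries held between 11298503 and 12680970 counts on zebrafish genes, so that 3 counts corresponded to between 0.237 and 0.266 counts per 1000000 gene counts (CPM). Levels below are CPM after TMM normalization, which sets the bulk of genes equal between libraries. A second scaling used the ERCC control RNAs, which had been added in proportion to the number of cells, so that levels are counts per 100000 ERCC counts. The quasi-likelihood test of edgeR was run on the 15813 genes left after a filter on low counts, p-values were adjusted over all of them (Benjamini-Hochberg), and a gene was called at an adjusted p under 0.05. The p-values measure the spread between the libraries of a group, taken here as separate animals. Genes of other cell types differed in level between the groups. Summed markers of skin and epithelium took 1402, 2512 and 3939 CPM in the JQ1 libraries, against 62.9, 105 and 312 CPM in the DMSO libraries, and summed germ cell genes took 333, 585 and 733 CPM, against 26.2, 17.0 and 42.7 CPM (sums over a list are per total gene counts, without TMM factors). DMSO replicate 3 stood apart from the other DMSO libraries in its macrophage and erythrocyte markers. It also had the highest DMSO sums for neutrophil (684 CPM), kidney tubule and intestine (430 CPM) and B cell markers (303 CPM). Values without it are given for several results, but not for these last lists.

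The transgenes marked the sorted cells. Human IRF4 had 7407, 2370 and 4184 CPM in the JQ1 libraries, against 5589, 5921 and 3630 CPM in the DMSO libraries. The groups overlapped, and the difference in mean log2 CPM of -0.24 had an exact permutation p of 0.7 (two-sided, n = 3 each). mCherry had 5023, 1421 and 3490 CPM with JQ1, against 4657, 4263 and 2965 CPM with DMSO, and JQ1 replicate 2 was the lowest library for both transgenes. The 4 genes used as T-cell markers (bcl11ba, themis, lat and lck) were present in every library and together took 2572, 1887 and 2090 CPM with JQ1, against 3689, 3047 and 2366 CPM with DMSO. The defining markers were thus found in both groups, and each JQ1 sum but that of replicate 1 lay below every DMSO sum. In bulk libraries fewer cells of a type and less RNA per cell cannot be told apart.

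To ask whether JQ1 changed the amount of RNA per cell, zebrafish gene counts were divided by ERCC counts. The log2 ratio was 6.01, 4.72 and 4.45 in the JQ1 libraries, against 6.74, 6.75 and 6.47 in the DMSO libraries. Every JQ1 library lay below every DMSO library. The mean was 5.06 ± 0.83 with JQ1 and 6.65 ± 0.16 with DMSO (SD, n = 3 each), a difference of -1.60 or 3.02-fold less RNA per ERCC count. The exact permutation p was 0.1, the smallest that 3 against 3 libraries allow. JQ1 replicate 1 lay much closer to the DMSO libraries than the other JQ1 libraries did, and without it the difference was -2.07. It was -1.29 without JQ1 replicate 3, -1.43 without JQ1 replicate 2 and between -1.69 and -1.55 with a DMSO library left out, and other ways of counting or scaling gave -1.68 to -1.57.

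**Figure D1:**
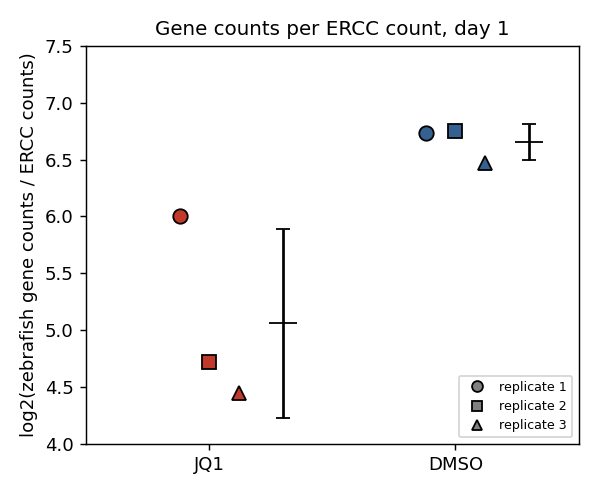
The log2 of zebrafish gene counts divided by ERCC counts is drawn for each day 1 library (a symbol for each replicate) with the mean of each group (short line) and its SD (error bar). The JQ1 libraries lie at 6.01, 4.72 and 4.45, all below the DMSO libraries at 6.47 to 6.75.

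The choice of scaling moved the whole distribution of fold changes. With TMM the median log2 fold change over all genes tested was 0.00, and with ERCC scaling it was -1.51, a shift of -1.51. With TMM, 7 genes (0.0443% of those tested) were called, all of them higher with JQ1, and 0 genes were called lower. Without a correction for the number of tests, 1950 genes (12.3%) were higher and 1586 (10%) were lower at a p under 0.05. The threshold fell at a crowded place in the list, since the next adjusted p was 0.0517, 52 genes lay under 0.055 and 1151 lay under 0.1. With ERCC scaling 6193 genes (39.2%) were called, 248 higher (1.57%) and 5945 lower (37.6%).

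Both counts depended on single libraries. Without DMSO replicate 3 the TMM fit called 1591 genes (1191 higher and 400 lower), and without any other single library it called 0. A fit of all 12 libraries, which takes the spread from both days, called 891 of 18116 genes (4.92%), 469 higher (2.59%) and 422 lower (2.33%), and included all 7 genes. With ERCC scaling the count of called genes was 9303 when JQ1 replicate 1 was left out, 580 when JQ1 replicate 2 and 944 when JQ1 replicate 3 was left out, 1692 without DMSO replicate 1 and 3131 without DMSO replicate 2. Because called genes are few with TMM, genes below are given with their levels in every library, and gene groups with the number of members at an unadjusted p under 0.05 beside the 12.3% (higher) and 10% (lower) of all genes.

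**Figure D2:**
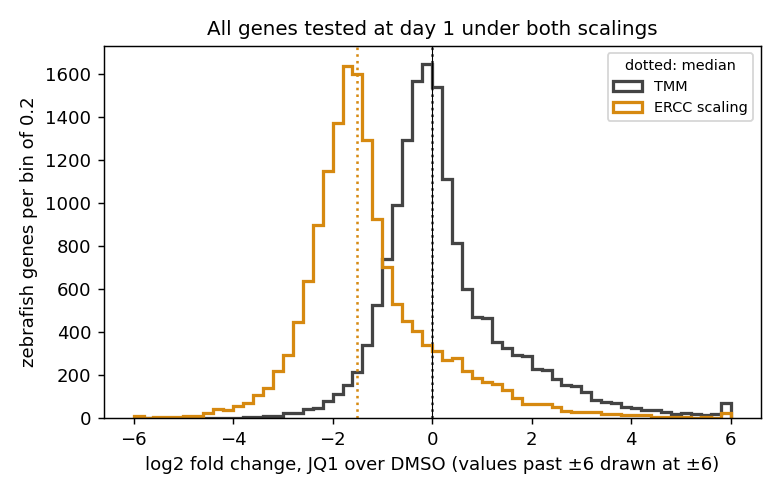
Histograms of log2 fold changes (JQ1 over DMSO) for the 15813 genes tested at day 1, with TMM and with ERCC scaling, values past 6 in either direction being drawn at 6. The median is 0.00 with TMM and -1.51 with ERCC scaling.

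The genes that rose with TMM were low or nearly absent in the DMSO libraries. piwil2, a Piwi protein that binds piRNAs in germ cells, had 15.4, 27.6 and 30.6 CPM with JQ1, against 0, 0.0914 and 0.0714 CPM with DMSO. That is 843 against 2 counts in all, a ratio of 458 with a counting interval of 127 to 3791 (adjusted p = 0.0237). krt97, a keratin of epithelial cells, had 46.7, 81.7 and 119 CPM, against 0.583, 0.366 and 1.71 CPM, and was higher by 6.49 ± 0.69 (log2 fold change ± SE, adjusted p = 0.0469). cldna, a claudin of tight junctions, had 31.8, 23.0 and 40.4 CPM, against 0.333, 0.366 and 1.07 CPM, a log2 fold change of 5.70 ± 0.58 (adjusted p = 0.0416). cfd, complement factor D, a protease of the alternative complement pathway, had 35.9, 21.3 and 39.5 CPM with JQ1, against 0.917, 1.19 and 1.43 CPM with DMSO, a log2 fold change of 4.76 ± 0.42. For these 4 genes the groups did not overlap and lay far apart.

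The other 3 called genes are given here without a role. si:dkey-248g15.3 had 15.9, 12.8 and 24.0 CPM with JQ1, against 0.167, 0.183 and 0.214 CPM with DMSO (6.46 ± 0.52). moto had 12, 19.6 and 15.9 CPM, against 0.0834, 0.0914 and 0.286 CPM (6.55 ± 0.63). wu:fj16a03 had 17.4, 25.3 and 21.9 CPM, against 1.08, 1.19 and 1.07 CPM (4.26 ± 0.38). All 7 genes were also called higher with ERCC scaling, with log2 fold changes between 2.67 and 7.02. Keratins are a family of similar genes, so reads of krt97 may be shared with near copies. These genes moved together with the sums of epithelial and germ cell markers given above, whose part in the result was not tested.

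The next genes by p did not pass the threshold and went both ways, since 44 of the 52 genes under 0.055, the 7 called ones included, were higher and 8 were lower. Among those higher, agr2, a disulfide isomerase of secretory epithelia, had 22.4, 16.6 and 13.8 CPM with JQ1, against 0.667, 1.37 and 0.785 CPM with DMSO. icn2, a calcium-binding protein of fish skin, had 15.0, 10.5 and 11.3 CPM, against 0 in each DMSO library, at least 49.9-fold higher when the DMSO libraries are set to 3 counts. dnah2, a dynein heavy chain of cilia and sperm flagella, had 10.8, 26.5 and 14.0 CPM, against 0 in each DMSO library, at least 69.6-fold higher on the same basis. brdt, the BET family member of male germ cells and a target of JQ1, differed from these in being well above zero in both groups, with 287, 277 and 246 CPM in the JQ1 libraries, against 88.0, 96.0 and 83.6 CPM in the DMSO libraries (adjusted p = 0.0517). With ERCC scaling its log2 fold change was 0.11 ± 0.66 (adjusted p = 0.893).

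Of the genes lower with JQ1, those with the smallest p did not pass the threshold either. pigb, a mannosyltransferase of GPI anchor synthesis, had 2.83, 3.90 and 3.98 CPM with JQ1, against 28.1, 22 and 18.8 CPM with DMSO. rcbtb2 had 4.24, 3.47 and 7.79 CPM, against 38.7, 33.1 and 45.9 CPM. tubgcp4, a subunit of the gamma-tubulin ring that nucleates microtubules, had 9.24, 7.37 and 9.34 CPM, against 50.6, 31.7 and 33.9 CPM. None overlapped between groups. secisbp2 (selenoprotein synthesis), mtif2 (mitochondrial translation initiation), rabggta (Rab prenylation), sdhaf2 (assembly of succinate dehydrogenase) and gpalpp1 lay between -2.81 and -2.26 in log2 fold change, zgc:171971 lay at -3.06, and scfd1, of transport between endoplasmic reticulum and Golgi, at -1.52.

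With ERCC scaling all 10 of these genes were called, and fell by 3.06 (scfd1) to 4.64 (zgc:171971) on the log2 scale. rcbtb2 fell by 4.56 ± 0.75 (adjusted p = 6.27e-05). Among the 8 genes lower with the smallest p under this scaling were vars2, the mitochondrial valyl-tRNA synthetase, cln6a, a membrane protein of the endoplasmic reticulum, and baiap3, a regulator of dense-core vesicles. baiap3 had 27.8, 13.3 and 9.10 counts per 100000 ERCC counts with JQ1, against 277, 1842 and 173 with DMSO, and fell by 5.53 ± 0.84. DMSO replicate 2 was far above the other DMSO libraries for baiap3, and likewise for KIRREL3 (ENSDARG00000115903), a cell adhesion protein, which fell by 6.51 with ERCC scaling. With TMM and without that library this ID was higher with JQ1 by 0.31, and a second KIRREL3 ID (ENSDARG00000113833) by 2.12 in place of -4.39, so both directions rested on 1 library.

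The direct molecular context of JQ1 was described by 22 genes of BET proteins, P-TEFb and elongation factors. hexim1 had 322, 209 and 184 CPM with JQ1, against 67.4, 86.9 and 45.3 CPM with DMSO, with no overlap between the groups (1.84 ± 0.34, adjusted p = 0.0610). The 12-library fit called it (adjusted p = 0.0151). MEPCE (ENSDARG00000059461), whose product caps and stabilizes 7SK RNA, the scaffold of the inactive P-TEFb complex, had 299, 184 and 194 CPM, against 35.1, 90.3 and 45.8 CPM (1.98 ± 0.41, adjusted p = 0.0645). A second ID with this symbol (ENSDARG00000035771) had 129 to 159 CPM, against 55.7 to 105 CPM, again with no overlap but a smaller difference (0.88 ± 0.28, adjusted p = 0.136). BRD2 had 1111, 713 and 758 CPM, against 365, 401 and 239 CPM (1.36 ± 0.30, adjusted p = 0.0721). In these genes JQ1 replicate 1 was the highest library. Gene names in capitals are human symbols that the name table gives to the zebrafish ID, and where 2 tested IDs carry the same symbol the values of both are given. The ID called hexim1 here (ENSDARG00000036482) carries the symbol HEXIM2 in that table. It was renamed because RefSeq lists only 1 zebrafish symbol starting with hexim.

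The single genes polr2a and supt4h1 went different ways, and neither overlapped between the groups. polr2a does not stand for the polymerase genes in general. Of 56 genes of RNA polymerase II and Mediator, 42 had a lower TMM estimate, and the highest estimate in that list was 0.97. polr2a, the largest subunit of RNA polymerase II, had 2171, 1532 and 1457 CPM with JQ1, against 1001, 925 and 707 CPM with DMSO (0.97 ± 0.27, adjusted p = 0.106). supt4h1, a subunit of the elongation factor DSIF, had 11.4, 7.71 and 13.2 CPM, against 28.8, 32.1 and 21.8 CPM (-1.36 ± 0.33, adjusted p = 0.0848).

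Over the 22 genes the median was -0.07 with TMM, and none was called. At an unadjusted p under 0.05, 5 were higher and 3 lower, against 12.3% and 10% of all genes. With ERCC scaling the median was -1.56 and 11 of the 22 were called lower, against 37.6% of all genes, among them supt4h1 (-2.87, adjusted p = 0.00338). hexim1 (0.47 ± 0.67, adjusted p = 0.556), MEPCE (0.62 ± 0.67, adjusted p = 0.433) and BRD2 (-0.04 ± 0.70, adjusted p = 0.967) lay near 0 under that scaling, and the second MEPCE ID at -0.60, against the median of -1.51 over all genes. The count of 11 ranged between 0 (without JQ1 replicate 2) and 19 (without JQ1 replicate 1).

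**Figure D3:**
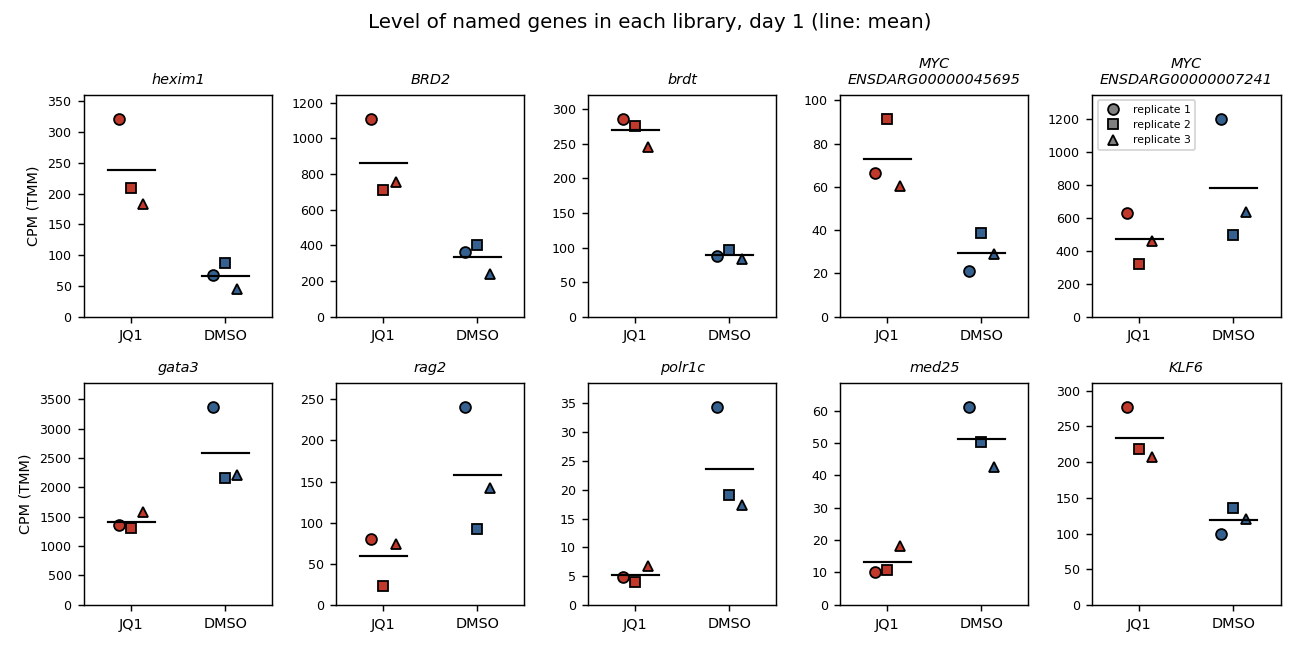
Levels of selected genes in the JQ1 (left) and DMSO (right) libraries of day 1 in CPM after TMM, each point being 1 library and each line the mean of its group. hexim1 lies between 184 and 322 CPM with JQ1 and between 45.3 and 86.9 CPM with DMSO, whereas the MYC gene ENSDARG00000007241 overlaps, with 323 to 633 CPM with JQ1 and 498 to 1205 CPM with DMSO.

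The genes that the study had shortlisted in its tumors (10 names, matched by 11 IDs since 2 IDs carry the human symbol MYC) had a TMM median of -0.45, and none was called. The only Myc gene on the study's shortlist is mycb. Which of the 2 MYC IDs is mycb was not assigned here, so 1 of the 11 IDs is not a shortlisted gene. gata3, a transcription factor of T-cell development, had 1366, 1305 and 1577 CPM with JQ1, against 3370, 2154 and 2217 CPM with DMSO (-0.87, adjusted p = 0.135). psip1a, a chromatin reader, had 28.1, 76.1 and 46.4 CPM, against 368, 77.9 and 115 CPM (-1.90, adjusted p = 0.147). In both genes every JQ1 library lay below every DMSO library, for psip1a by a narrow margin. The levels of h2ax, sec22ba, sla2b and midn differed by -0.08, 0.17, 0.06 and 0.01 with TMM, and these signs changed between settings. With ERCC scaling the median of the 11 was -1.92, and 6 were called lower, against 37.6% of all genes: gata3 (-2.42), psip1a (-3.64), ncaldb (-2.07), patl1 (-1.92), lrrn1 (-2.18) and 1 of the MYC IDs. This count of 6 lay between 1 (without DMSO replicate 1, JQ1 replicate 2 or JQ1 replicate 3) and 9 (without JQ1 replicate 1).

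The 2 MYC IDs went different ways. ENSDARG00000007241, the more abundant, had 633, 323 and 458 CPM with JQ1, against 1205, 498 and 637 CPM with DMSO (-0.73, adjusted p = 0.329). ENSDARG00000045695 had 66.2, 91.6 and 60.3 CPM, against 20.9, 38.5 and 29.1 CPM (adjusted p = 0.0807), with no overlap between the groups. With ERCC scaling the first fell by 2.13 (adjusted p = 0.0230), and the second differed by -0.23 and was not called. mycn, another Myc family member, was low, with 29.8, 8.55 and 16.2 CPM, against 1.58, 6.21 and 1.93 CPM (2.49, adjusted p = 0.106). Over the 15 genes of the Myc and Max network the TMM median was -0.05. At an unadjusted p under 0.05, 3 were higher and 0 lower, against 12.3% and 10% of all genes.

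Genes that the study's tables link to super-enhancers were described in 2 lists. Of 23 tested IDs matched to genes near tumor-specific super-enhancers, 20 had a lower estimate with TMM (median -0.53). At an unadjusted p under 0.05, 5 were lower and 1 higher, against 10% and 12.3% of all genes. IDs were matched by symbol, so both MYC IDs and both MSI2 IDs were counted. The 1 higher was ENSDARG00000045695, the scarcer MYC ID. Super-enhancers common to tumors and normal thymus had 41 listed genes, matched by 46 IDs. Their median was -0.37, with 7 lower and 2 higher at an unadjusted p under 0.05. slc29a1a, a nucleoside transporter, had 743, 351 and 546 CPM with JQ1, against 1597, 705 and 925 CPM with DMSO, whereas DGKZ (ENSDARG00000076025), a diacylglycerol kinase that dampens T-cell receptor signals, had 56.9, 81.0 and 56.4 CPM, against 22.2, 18.6 and 25.7 CPM. The more abundant DGKZ ID (ENSDARG00000014439) went the other way, with 754, 581 and 513 CPM, against 904, 926 and 852 CPM (-0.54, adjusted p = 0.231). tbl1xr1a, a subunit of corepressor complexes, had 95.5, 99.8 and 96.3 CPM, against 289, 161 and 161 CPM. With ERCC scaling 17 of the 23 tumor-specific genes and 22 of the 46 common genes fell, against 37.6% of all genes, and 1 common gene, B3GNT5 (ENSDARG00000004396), rose (3.13). The more abundant B3GNT5 ID (ENSDARG00000018971) lay at -1.13 and was not called. The 17 ranged between 2 (without JQ1 replicate 2 or 3) and 22 (without JQ1 replicate 1), and the 22 between 0 and 41. Whether the 2 lists differ from each other was not tested.

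T-cell genes had a TMM median below that of all genes, and none passed the threshold. Of 38 tested, 25 had a lower TMM estimate (median -0.37, against 0.00 over all genes). At an unadjusted p under 0.05, 5 were lower and 2 higher, against 10% and 12.3% of all genes. The count of lower genes was thus near the background. ikzf1, a zinc finger factor of lymphoid development, had 111, 79.6 and 93.0 CPM with JQ1, against 254, 292 and 143 CPM with DMSO (-1.28, adjusted p = 0.0840). themis, needed for selection of thymocytes, had 243, 245 and 254 CPM, against 482, 575 and 343 CPM (-0.92, adjusted p = 0.0990). Both were lower in each JQ1 library than in any DMSO library. rag2, a subunit of the V(D)J recombinase, had 80.6, 23.5 and 74.5 CPM, against 241, 92.8 and 142 CPM. rag1, its partner, ranged over 22.9 to 256 CPM with JQ1 and 32.0 to 759 CPM with DMSO, so the groups overlapped widely, and without DMSO replicate 2 its TMM estimate was 0.09 in place of -1.23. ID2, an inhibitor of E-protein transcription factors, went the other way, with 53.2, 42.4 and 44.2 CPM, against 6.34, 21.6 and 18.6 CPM (1.59, adjusted p = 0.107). With ERCC scaling 22 of the 38 fell, against 37.6% of all genes, ikzf1 by 2.73, themis by 2.45, rag2 by 2.83 and rag1 by 2.46, and this count ranged between 2 with JQ1 replicate 3 left out and 25 with JQ1 replicate 1 left out. The summed epithelial and germ cell markers took more of the JQ1 libraries, and their part in the lower shares was not tested.

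**Figure D4:**
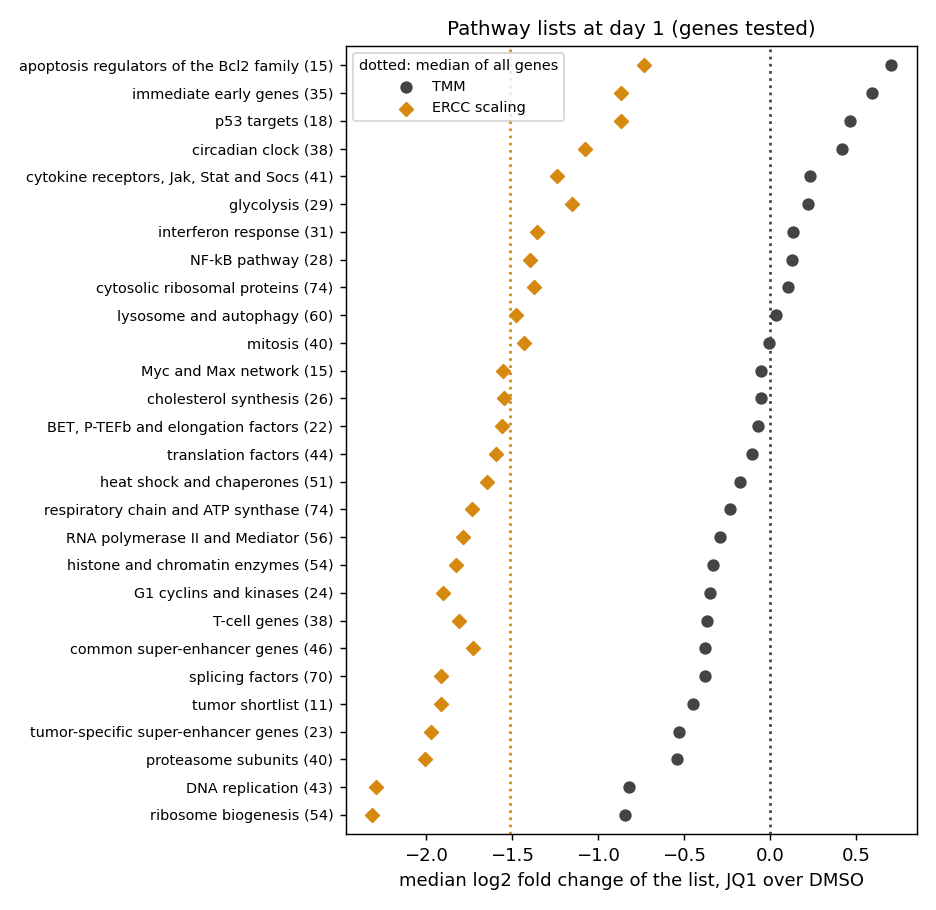
The median log2 fold change (JQ1 over DMSO) at day 1 over the tested genes of each pathway list, with TMM and with ERCC scaling. Ribosome biogenesis (-0.84 with TMM) and DNA replication (-0.82) are lowest and Bcl2 family genes (0.70) and immediate early genes (0.59) highest, while the medians of all genes are 0.00 and -1.51.

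Genes of ribosome biogenesis, which make and process ribosomal RNA in the nucleolus, had the lowest median among the pathway lists. Of 54 tested, 53 had a lower TMM estimate (median -0.84), 25 were lower and 0 higher at an unadjusted p under 0.05, against 10% of all genes, and in 31 every JQ1 library lay below every DMSO library, against 14.5% of all genes. polr1c, a subunit shared by RNA polymerases I and III, had 4.81, 3.90 and 6.75 CPM with JQ1, against 34.4, 19.1 and 17.3 CPM with DMSO (-2.19 ± 0.42, adjusted p = 0.0618). polr1e, a subunit of RNA polymerase I, had 5.09, 5.93 and 9.60 CPM, against 35.2, 21.9 and 17.9 CPM (-1.86 ± 0.41). noc4l and nol6, which act in assembly of the small subunit, lay at -1.62 and -1.06.

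The most abundant member differed less. ncl, nucleolin, had 1286, 773 and 1045 CPM with JQ1, against 2006, 1221 and 1002 CPM with DMSO (-0.45 ± 0.34), and the groups overlapped. With ERCC scaling the median of the 54 was -2.32 and 52 were called lower, against 37.6% of all genes, polr1c falling by 3.79 ± 0.75 and ncl by 1.89 ± 0.75. The TMM median stayed between -1.03 and -0.50 when each library was left out. The count called with ERCC scaling was 53 without JQ1 replicate 1, but 6 without DMSO replicate 1 and 3 or 6 when JQ1 replicate 2 or 3 was left out.

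The mRNAs of the ribosome's own proteins did not follow the genes that build it. Of 74 cytosolic ribosomal protein genes 62 had a higher estimate with TMM, with a median of 0.11. rplp0 had 7324, 5226 and 6389 CPM with JQ1, against 2514, 7749 and 5197 CPM with DMSO, and rpl3 had 4899, 4129 and 4507 CPM, against 1995, 5316 and 3578 CPM. For both genes DMSO replicate 1 was low, and without it the TMM estimates were -0.07 and -0.01. rpl37 (ENSDARG00000076360) stood apart, with 5, 5.67 and 9.78 CPM, against 43.3, 21.8 and 19.3 CPM (-2.04 ± 0.46, adjusted p = 0.0724). A second rpl37 ID (ENSDARG00000034291), which is not in the list, was far more abundant and overlapped, with 1613, 1452 and 1730 CPM, against 1265, 2033 and 1214 CPM (0.09 ± 0.28). With ERCC scaling the list's median was -1.37, and the scarce rpl37 ID was the only member called, falling by 3.74. This count of 1 became 74 of 74 without JQ1 replicate 1. Translation factors lay close to all genes (median -0.10 over 44 tested, 1 lower at an unadjusted p under 0.05), with eif6, which holds large subunits apart until they mature, at 35.7, 26.4 and 39.3 CPM, against 88.9, 55.4 and 53.2 CPM.

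DNA replication genes were lower in share, but with wide scatter among the DMSO libraries. Of 43 tested, 40 had a lower TMM estimate (median -0.82). At an unadjusted p under 0.05, 8 were lower and 0 higher, against 10% and 12.3% of all genes. In only 2 of the 43 did every JQ1 library lie below every DMSO library, against 14.5% of all genes. mcm2, a subunit of the replicative helicase, had 253, 116 and 190 CPM with JQ1, against 644, 306 and 148 CPM with DMSO, and mcm7 had 193, 134 and 178 CPM, against 419, 268 and 172 CPM. In both DMSO replicate 3 lay within the JQ1 range. Without it 30 of the 43 were lower at an unadjusted p under 0.05, against 2130 of all 16738 genes in that fit. pola2, of DNA polymerase alpha and primase, had 15.8, 11.3 and 17.1 CPM, against 65.6, 50.4 and 18.2 CPM (-1.60). With ERCC scaling 36 of the 43 fell (median -2.29), against 37.6% of all genes, and this count was 3 without DMSO replicate 1 and 1 or 3 when JQ1 replicate 2 or 3 was left out.

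Genes of mitosis lay at the median of all genes. Of 40 tested, 19 were higher and 21 lower in estimate (median -0.00), and 0 reached an unadjusted p under 0.05 in either direction. cdc20, an activator of the anaphase-promoting complex, had 112, 48.7 and 69.9 CPM with JQ1, against 50.3, 49.7 and 35.4 CPM with DMSO, and ccnb1, cyclin B1, had 125, 59.0 and 79.7 CPM, against 35.5, 72.4 and 48.6 CPM. mki67, a marker of cycling cells, had 648, 266 and 816 CPM, against 1090, 911 and 540 CPM. All 3 overlapped between the groups. With ERCC scaling 16 of the 40 fell, near the background of 37.6%, mki67 among them (-2.07), and this count was 0 with JQ1 replicate 2 left out and 40 with JQ1 replicate 1 left out.

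The mitotic genes also had the largest share of members, among the pathway lists, at which the days differed. Against the median of -0.00 at day 1, the same 40 genes had a median of -1.59 with TMM at day 3 and 30 were called lower, against 9.91% of all genes at that day. cdc20, ccnb1 and mki67 lay at 0.77, 0.75 and -0.56 at day 1, against -1.64, -1.72 and -2.51 at day 3. In the test of the difference between days (the treatment by day term over all 12 libraries), 32 of the 40 had an unadjusted p under 0.05, against 6.96% of all genes. None passed after adjustment. Over all 18116 genes edgeR called 0 for this difference (1260 had an unadjusted p under 0.05) and DESeq2 called 39. Ribosome biogenesis had medians close to each other (-0.84 at day 1 and -0.83 at day 3), and 0 of its genes had an unadjusted p under 0.05 for the difference. The log2 difference in gene counts per ERCC count (JQ1 minus DMSO) was -1.60 at day 1 and -0.66 at day 3, and the day 1 minus day 3 value of -0.94 had an exact permutation p of 0.315 over 400 arrangements (two-sided, n = 3 each).

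Among G1 regulators single genes stood out from a list near the background (24 tested, median -0.35, 2 higher and 1 lower at an unadjusted p under 0.05). CDKN1B (ENSDARG00000054271), the cyclin-dependent kinase inhibitor p27, had 188, 110 and 110 CPM with JQ1, against 62.0, 69.2 and 57.5 CPM with DMSO (1.11 ± 0.28, adjusted p = 0.0865). A second CDKN1B ID (ENSDARG00000029018) overlapped, with 60.8, 62.8 and 32.9 CPM, against 27.3, 91.4 and 31.9 CPM (0.06 ± 0.51, adjusted p = 0.964). rbl1, the pocket protein p107, had 28.8, 23.7 and 26.6 CPM, against 87.9, 57.1 and 41.1 CPM (-1.24 ± 0.32, adjusted p = 0.0924). rbl1 and the first CDKN1B ID did not overlap between groups. With ERCC scaling rbl1 fell by 2.74, and the CDKN1B IDs differed by -0.24 and -1.35 and were not called. cdk6, a G1 kinase, had 108, 79.7 and 139 CPM, against 217, 123 and 170 CPM.

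Several lists of the nuclear machinery had medians below that of all genes with TMM, and none of their members was called. Of 70 splicing factors 12 were lower at an unadjusted p under 0.05 (median -0.38) and 0 higher. Of 56 genes of RNA polymerase II and Mediator 9 were lower and 2 higher (median -0.29), and of 54 histone and chromatin enzymes 10 were lower and 1 higher (median -0.33), against 10% lower over all genes. med25, a subunit of Mediator, the bridge between activators and RNA polymerase II, had 10.2, 10.8 and 18.3 CPM with JQ1, against 61.2, 50.2 and 42.5 CPM with DMSO (-1.97 ± 0.33, adjusted p = 0.0608). hdac6, a cytoplasmic deacetylase, had 5, 9.40 and 12.9 CPM, against 38.6, 28.4 and 47.5 CPM (-2.07 ± 0.42, adjusted p = 0.0645). U2AF2 (ENSDARG00000012505), which binds the 3' splice site, had 31.7, 41.6 and 49.2 CPM, against 102, 71.7 and 107 CPM (-1.19 ± 0.27, adjusted p = 0.0754).

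In these IDs the groups lay apart in every library. The more abundant U2AF2 ID (ENSDARG00000011740) differed less (-0.44, adjusted p = 0.342) and fell by 1.91 with ERCC scaling. med24 and taf6, a subunit of TFIID, lay at -1.53 and -1.51, the SUZ12 IDs ENSDARG00000070256 and ENSDARG00000098924, of the Polycomb complex PRC2, at -1.12 and -0.38, and the CREBBP IDs ENSDARG00000104609 and ENSDARG00000112452, of a histone acetyltransferase, at -0.81 and 0.08. With ERCC scaling 49 of the 70 splicing factors, 34 of the 56 polymerase and Mediator genes and 33 of the 54 chromatin enzymes fell, against 37.6% of all genes. med25 fell by 3.62, hdac6 by 3.81 and the first U2AF2 ID by 2.82. These counts became 0, 3 and 1 when JQ1 replicate 2 was left out and 68, 55 and 52 when JQ1 replicate 1 was.

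Proteasome and respiratory genes also had medians below that of all genes with TMM, but their counts of lower genes did not exceed the background. Of 40 proteasome subunits 38 had a lower TMM estimate (median -0.54), but only 4 were lower at an unadjusted p under 0.05, against 10% of all genes. psma6a, of the catalytic core, had 28.3, 19.5 and 32.6 CPM with JQ1, against 74.1, 50.9 and 35.0 CPM with DMSO. psme4a, a proteasome activator known for its role in spermatogenesis in mice, was the exception, with 5.56, 10.2 and 3.89 CPM, against 0.417, 0.914 and 2.07 CPM. Of 74 genes of the respiratory chain and ATP synthase 5 were lower at an unadjusted p under 0.05 (median -0.23) and 0 higher, against 10% and 12.3% of all genes. The complex I subunit ndufc2 had 9.34, 7.71 and 12.6 CPM, against 30.8, 21.8 and 19.7 CPM. With ERCC scaling 35 of the 40 proteasome genes and 45 of the 74 respiratory genes fell, against 37.6% of all genes. These counts were 0 and 2 without JQ1 replicate 2.

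Immediate early genes, which respond within minutes to signals and handling, were the pathway list with the second highest median. Of 35 tested, 27 had a higher TMM estimate (median 0.59), 7 were higher and 0 lower at an unadjusted p under 0.05, against 12.3% and 10% of all genes. KLF6 had 278, 218 and 207 CPM with JQ1, against 99.9, 135 and 120 CPM with DMSO (0.98 ± 0.23, adjusted p = 0.0788). klf2b, a Krüppel-like factor of quiescent T cells and endothelium, had 157, 160 and 188 CPM, against 15.8, 76.1 and 44.2 CPM (1.89 ± 0.51, adjusted p = 0.0990). SOCS3 (ENSDARG00000025428), a feedback inhibitor of cytokine signals, had 591, 575 and 424 CPM, against 42.8, 142 and 347 CPM. The groups did not overlap in these genes, but did in a second SOCS3 ID (ENSDARG00000026611), with 77.1, 44.5 and 69.9 CPM, against 9.84, 30.5 and 101 CPM. The list's count of higher genes ranged between 2 (without JQ1 replicate 1) and 14 (without DMSO replicate 2). Over all genes, 1725 of 16709 and 1923 of 17056 were higher in these fits at an unadjusted p under 0.05. With ERCC scaling 0 members rose and 4 fell (median -0.86), against 1.57% and 37.6% of all genes.

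Regulators of cell death had the highest median of the pathway lists, with few members apart. Of 15 tested genes of the Bcl2 family, 14 had a higher TMM estimate (median 0.70). At an unadjusted p under 0.05, 3 were higher, against 12.3% of all genes. bcl2l11, the BH3-only protein Bim, had 12.4, 9.15 and 7.35 CPM with JQ1, against 2.58, 4.30 and 3.14 CPM with DMSO (1.52 ± 0.45, adjusted p = 0.113). BOK, a pore-forming member, had 2.17, 5.50 and 3.81 CPM, against 0.250, 0.548 and 0.0714 CPM. mcl1b, a survival factor, had 68.4, 60.3 and 42.0 CPM, against 7.59, 28.8 and 32.5 CPM, so members that promote and members that oppose death were both at the higher end. Of 18 p53 targets 16 had a higher estimate (median 0.46), but only 2 were higher at an unadjusted p under 0.05, near the 12.3% of all genes. GADD45A (ENSDARG00000043581), a stress gene, had 70.4, 30.8 and 23.4 CPM, against 8.75, 3.75 and 11.6 CPM, and the GADD45A ID ENSDARG00000104571 lay at 1.52 in log2 fold change without overlap, whereas cdkn1a, the inhibitor p21, had 13.1, 5.76 and 10.3 CPM, against 2, 8.50 and 2.43 CPM and overlapped. None of these genes was called with either scaling, and the ERCC medians were -0.73 for the Bcl2 family and -0.87 for p53 targets.

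Other pathway lists lay near the background with single genes apart. hlfa, a PAR bZIP factor of clock output, had 71.3, 76.6 and 64.5 CPM with JQ1, against 14.9, 23.3 and 21.9 CPM with DMSO (1.82 ± 0.27, adjusted p = 0.0548), in a circadian list with 6 of 38 higher and 1 lower at an unadjusted p under 0.05 (median 0.42). The time of day at which each fish was taken is not given in the labels, and its part was not tested. hexa, a lysosomal hexosaminidase, had 19.7, 29.7 and 26.6 CPM, against 5.83, 5.57 and 5.64 CPM (2.16 ± 0.31, adjusted p = 0.0548). Of 60 lysosome and autophagy genes 7 were higher and 2 lower at an unadjusted p under 0.05 (median 0.03). Without DMSO replicate 3, 22 were higher at that level, against 3578 of all 16738 genes in that fit.

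Metabolic and immune lists are set against the 12.3% higher and 10% lower of all genes at an unadjusted p under 0.05. The share of higher genes lay above that of all genes in cholesterol synthesis (6 of 26) and below it in the NF-kB list (1 of 28). In cholesterol synthesis (26 tested, median -0.05, 6 higher and 0 lower at an unadjusted p under 0.05) hsd17b7, a sterol reductase, had 9.34, 14.6 and 13.2 CPM with JQ1, against 1.25, 0.183 and 1.29 CPM with DMSO (3.74 ± 0.72, adjusted p = 0.0618). nfkbiz, an inducible cofactor of NF-kB, had 54.7, 42.9 and 44.6 CPM, against 2.67, 4.94 and 14.9 CPM (2.65 ± 0.61, adjusted p = 0.0762), while its list of 28 genes had 1 higher and 1 lower. irf7, an interferon regulatory factor, had 158, 74.2 and 63.8 CPM, against 19.7, 30.1 and 46.4 CPM, among 31 interferon genes with 3 higher and 1 lower. Glycolysis (29 tested, median 0.22, 3 higher, 0 lower), cytokine receptors with Jak, Stat and Socs genes (41 tested, median 0.23, 7 higher, 1 lower) and chaperones (51 tested, median -0.17, 4 higher, 4 lower) completed these lists.

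Several lists of genes that mark other cell types had larger medians than any pathway list. Of 16 tested markers of skin and epithelium, all 16 were higher in each JQ1 library than in any DMSO library, against 16.6% of all genes, with a TMM median of 3.47. Some, such as icn2 with 0 in each DMSO library, passed the filter on low counts through the JQ1 libraries. With 2 of 18 IDs left out by that filter, the count and median lean towards higher values. krt91 had 430, 731 and 1314 CPM with JQ1, against 11.8, 5.21 and 25.2 CPM with DMSO (5.87 ± 0.74, adjusted p = 0.0517), and krt5, the keratin of basal epidermis, had 331, 404 and 779 CPM, against 6.42, 2.38 and 18.7 CPM. epcam, an adhesion protein of epithelia, had 40.7, 46.4 and 81.5 CPM, against 1.75, 0.640 and 3.64 CPM. With ERCC scaling 7 of the 16 were called, all higher, against 1.57% of all genes, krt91 rising by 4.11 and epcam by 3.13.

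Germ cell genes had the highest median among the marker lists. Of 16 tested, 14 were higher at an unadjusted p under 0.05 (median 5.88), against 12.3% of all genes. With TMM 1 was called (piwil2), and 12 rose with ERCC scaling, against 1.57% of all genes. piwil1 had 121, 176 and 260 CPM with JQ1, against 0.167, 0.274 and 5.50 CPM with DMSO, ddx4 (vasa, a germ plasm helicase) had 45.9, 88.4 and 107 CPM, against 0, 0.274 and 3.64 CPM, and tdrd9, a helicase of the piRNA pathway, had 22, 29.9 and 43.7 CPM, against 0, 0 and 0.643 CPM. DMSO replicate 3 had the most of each among the DMSO libraries, and every JQ1 library was above it. Of 16 meiosis genes 13 were higher at an unadjusted p under 0.05 (median 4.53, or 3.57 with genes absent from DMSO set to their lower bound). They included msh4, of meiotic crossovers, with 5.28, 4.07 and 5.54 CPM, against 0 in each DMSO library, at least 20.2-fold higher. Of 32 genes of sperm flagellum and spermatids 21 were higher at an unadjusted p under 0.05 (median 3.28). Many members of these 3 lists were near 0 with DMSO and passed the filter on low counts through the JQ1 libraries. Those low in both groups were left out (2 of 18 germ cell, 4 of 20 meiosis and 10 of 42 sperm IDs). The counts and medians therefore lean towards higher values. Only 4 of 18 oocyte genes passed the filter (median 0.76). Of these, zp3b, an egg envelope protein, and org were higher without overlap at 1.69 and 4.24, each with an unadjusted p under 0.05, and the other 2 had lower estimates. Of 19 genes of gonad somatic cells 6 passed the filter, with 3 higher at an unadjusted p under 0.05 (median 1.55), against 12.3% of all genes. These 3, dmrt1 among them, and org had few counts with DMSO and passed the filter through the JQ1 libraries. Their direction is therefore no independent evidence. dmrt1, a gene of testis development, had 7.45, 16.5 and 8.13 CPM, against 0, 0 and 0.214 CPM. amh, the anti-Müllerian hormone, overlapped (1.19), as did FOXL2, a factor of ovarian somatic cells, with 6.70, 54.5 and 80.8 CPM, against 117, 170 and 65.4 CPM (-1.31).

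With each library left out in turn, 14 germ cell genes and 15 or 16 epithelial genes were higher at an unadjusted p under 0.05, and the medians stayed between 5.46 and 8.38 and between 3.18 and 4.34. Over all genes the largest share higher in these fits was 3578 of 16738, without DMSO replicate 3. The limit from the filter on low counts holds for both lists here as well. The same lists lay at 6.11 and 3.73 at day 3. The fish are recorded as of mixed gender without the gender of each animal, and the part of sex in these values was not tested. Without TMM factors, as for the sums, IRF4 had 6660, 2477 and 4206 CPM and mCherry 4516, 1485 and 3507 CPM in the JQ1 libraries. The skin and epithelium sum given above exceeded both transgenes in JQ1 replicate 2 and mCherry in JQ1 replicate 3, and the germ cell sum was below both in each.

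**Figure D5:**
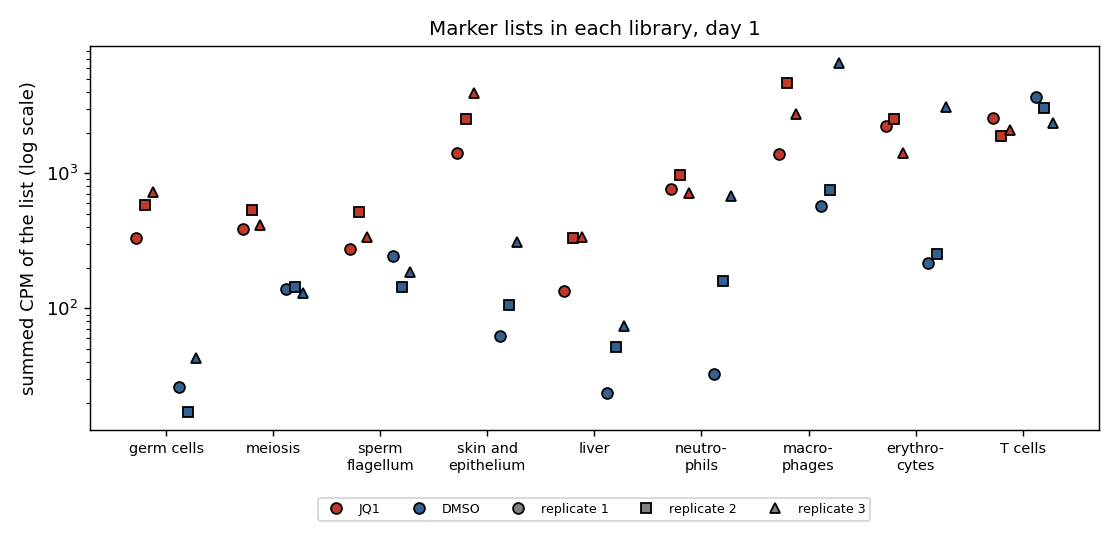
Summed CPM of marker lists in each library of day 1 on a log axis, with the JQ1 libraries left of the DMSO libraries. Skin and germ cell markers separate the groups completely (1402 to 3939 against 62.9 to 312 CPM for skin), while macrophage and erythrocyte markers are highest in DMSO replicate 3.

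Markers of blood and liver did not all follow. Of 18 liver IDs 13 passed the filter, all higher in estimate (median 2.87, 10 at an unadjusted p under 0.05). Some, such as fgb, c9 and serpina1l, were near 0 with DMSO and passed through the JQ1 libraries. rbp4, the retinol carrier, had 43.6, 155 and 69.2 CPM with JQ1, against 11.3, 4.02 and 10.7 CPM with DMSO. All 6 tested neutrophil genes had a higher estimate (median 2.15), 4 of them at an unadjusted p under 0.05, against 12.3% of all genes. Among them npsn, a granule protease, had 251, 559 and 349 CPM, against 13.5, 94.9 and 39.8 CPM. In il1b the groups overlapped, with 289, 132 and 121 CPM, against 4.08, 15.1 and 442 CPM, the last in DMSO replicate 3. Macrophage markers overlapped, with summed levels of 1391, 4628 and 2726 CPM with JQ1, against 574, 749 and 6513 CPM with DMSO, and erythrocyte markers had 2234, 2511 and 1408 CPM, against 217, 254 and 3072 CPM. In both DMSO replicate 3 was the highest library. Without it 7 of 13 macrophage genes and 6 of 7 erythrocyte genes were higher at an unadjusted p under 0.05. With it 0 in each list were higher at that level. Over all genes 3578 of 16738 were higher at that level in the fit without DMSO replicate 3. Lists with few tested genes also had high medians. Of 14 muscle IDs 5 passed the filter on low counts, all higher in estimate (median 2.27). Of these, 4 were higher without overlap, against 16.6% of all genes, and 2 at an unadjusted p under 0.05. These 5 had few counts with DMSO and passed through the JQ1 libraries, so their direction is no independent evidence. Of 8 thrombocyte IDs 5 passed, all higher too (median 1.82, 2 at that level), with the same limit for vwf. Kidney tubule and intestine genes had a median of 2.04 (13 tested, 2 at that level) and endothelial genes 1.17 (11 tested, 1), whereas B cell genes lay at 0.25 (7 tested, 0), against 12.3% of all genes at that level. The most abundant endothelial marker, fli1b, went the other way (-0.57). Summed endothelial markers had 559, 727 and 605 CPM with JQ1, against 1027, 848 and 775 CPM with DMSO. Most of each sum was fli1b, with 551, 615 and 519 CPM after TMM, against 996, 895 and 615 CPM. The sums are therefore no second result beside fli1b. Of the 11 endothelial genes, 8 had a higher TMM estimate and 3 a lower one. The part of these other cell types in the fold changes of the tumor genes above was not tested.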

How the data were processed

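The deposited table holds raw counts per Ensembl gene and ERCC sequence for 12 libraries. Per the study's methods and processing notes, the authors aligned strand-specific paired reads to GRCz11 (danRer11) with STAR 2.5.2a, kept reads mapping to 1 place, and counted them with featureCounts. Their DESeq2 1.12.4 tables hold their own fold changes and p-values and were not used.

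Here day 1 JQ1 and DMSO counts (3 libraries each) were tested with edgeR 4.0.16 (R 4.3.3, limma 3.58.1): filterByExpr, TMM factors, quasi-likelihood F test, Benjamini-Hochberg adjustment, threshold 0.05. A second fit set library sizes to ERCC totals. The treatment by day term used all 12 libraries. Single values had two-sided exact permutation tests. DESeq2 1.42.0, other filters, normalizations, a replicate block and leaving out each library were alternatives. The code was tested on simulated data. Lower bounds set groups at 0 to 3 counts per library, and counting intervals cover counting error only. Replicate libraries differed beyond counting noise (chi-square per degree of freedom 38.8 or more), so none was counted as 1 sample with another.

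Names came from a supplied table and the study's own, giving 23632 of 25607 gene IDs a name. Named genes were those called with TMM, those with the smallest p with TMM or ERCC scaling with no overlap and at least 10 CPM in the higher group, the shortlisted and a few fixed genes, and in each list the members with the smallest p or the highest level. Second IDs of a symbol, zp3b, org, amh and FOXL2 were added after their values were seen. irf4a is not analysed here. Some members of the lists are not reported here by name. In lists, unmatched names were left out (neutrophils, erythrocytes and meiosis had under 80% matched). The comparison, lists and tests were chosen with earlier results of these data known.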

Additional observations from a re-analysis of the deposited data

How the results depend on the processing

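The count of genes called with TMM was 225 with no filter on low counts (168 higher, 57 lower), 3 among genes of at least 10 CPM, 891 in the fit of 12 libraries, 0 with the replicate block, 2015 with DESeq2 (1281 higher, 734 lower), 4 with total counts, and between 0 and 1591 with each library left out. With ERCC scaling it was between 580 and 9303 with each library left out. The counts with 0 calls had between 2443 and 3418 genes at an unadjusted p under 0.05. For the change between days, 0 genes became 1 with ERCC scaling and 39 with DESeq2, and between 0 and 1 with each library left out. The difference in gene counts per ERCC count lay between -2.07 and -1.29 with each library left out. Same-numbered libraries deviated with correlations of 0.15, -0.14 and -0.09, so the numbers were not taken to pair the samples. The replicate block gave 0 calls with TMM and 7449 with ERCC scaling.

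Some TMM estimates changed sign. Without DMSO replicate 2, KIRREL3 and rag1, far from 0 otherwise, turned to 0.31 (or 2.12 for the second KIRREL3 ID, ENSDARG00000113833) and 0.094. With each library left out the range was -5.85 to 0.31 and -5.71 to 2.12 for the KIRREL3 IDs and -1.94 to 0.094 for rag1, and for genes with estimates nearer to 0 it was -0.42 to 0.14 for h2ax, -0.21 to 0.77 for sec22ba, -1.10 to 0.34 for irf4b, -0.46 to 0.39 for sla2b, -0.27 to 0.15 for midn, -0.068 to 0.69 for rplp0 and -0.011 to 0.67 for rpl3. For the second IDs of a symbol it was -0.28 to 0.79 for CDKN1B, -0.15 to 0.23 for CREBBP, -0.74 to 0.36 for B3GNT5, -0.076 to 0.34 for rpl37 and -0.068 to 1.62 for SOCS3. Among genes of at least 10 CPM h2ax was at 0.056 and irf4b at 0.051. With no filter midn was at -0.052, CDKN1B at -0.011 and B3GNT5 at -0.0053, and with total counts midn was at -0.046 and B3GNT5 at -0.023. B3GNT5 was at -0.13 with the replicate block. midn was at -0.0024 in the fit of 12 libraries and at -0.000975 with the replicate block. The counts per list with each library left out were added after the data were seen. With 3 libraries a group, the exact test of a single value cannot go below a p of 0.1. A low gene such as BOK rests on few counts. Reads of keratins and other near copies cannot be assigned with certainty.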
